A study of Mus musculus with 20 samples.

Results

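Cytosolic ribosomal protein genes encode the proteins that, with ribosomal RNA, make up the large and small subunits of the ribosome. The members described here are the protein-coding mouse genes named Rpl or Rps with a number, together with Rplp0, Rplp1, Rplp2 and Rpsa, whose mean level over all libraries was at least 50 CPM, that is, counts scaled to a common library size. They number 75 of the 39179 gene IDs counted, with 45 genes of the large and 30 of the small subunit, and all 75 were among the 15254 genes that passed the filter on low counts. The name alone gave 80 candidates. The members just inside the limit were Rpl36a at 73.8 CPM and Rps28 at 81.5 CPM. The candidates outside it were Rps27l at 48.6 CPM, Rpl24 at 1.46, Rpl3l at 0.117, Rpl39l at 0.0578 and Rpl10l, listed at 0 in all libraries. The level of Rpl24 is that of its listed gene ID, and whether its reads were counted under another ID was not tested. Fau, Rack1, Rps3a1 and Rpl36al also encode ribosomal proteins or their paralogs, but are spelled otherwise and are not members.

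RNA was sequenced from epididymal fat, the visceral depot beside the epididymis, of male C57BL6/J mice. Mice on normal chow formed the day 0 group, and 4 more groups were taken after 2, 4, 6 or 14 days on a high-fat diet that replaced the chow. Each group held 4 libraries, 20 in all, and the mice's age is not given in the sources used here. Nothing in the labels says more than that these are biological replicates, so the p-values measure the spread between these samples. The question put to the members was how the ribosomal protein messages behaved as chow-fed fat met a rich diet.

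A cell makes each ribosome from a single copy of nearly every one of these proteins, and their messages are among the most abundant in any cell. Many of the messages begin with a C followed by an unbroken run of C and U, a feature known as the 5′ terminal oligopyrimidine tract. Through it the nutrient-sensing kinase complex mTORC1 and the RNA-binding protein Larp1 govern how much of the message is translated and how stable it is. Ribosome occupancy was not measured in these samples, so the values below are message levels only.

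The starts of some of the members the results turn on are printed to show this tract where it is present. RefSeq's promoter table for GRCm38.p6 held 65 entries for 55 of the 75 members. Each line gives the 30 bases around 1 annotated start, 15 before it and 15 from it on, in 5′ to 3′ order on the gene's strand. Capitals mark the longest stretch of a C and at least 4 further bases that are each C or T, and a line without capitals has none.
Rps27, chr3:90213634-90213663, minus strand: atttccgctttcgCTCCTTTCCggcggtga
Rps6, chr4:86857353-86857382, minus strand: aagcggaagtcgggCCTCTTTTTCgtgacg
Rps18, chr17:33955651-33955680, minus strand: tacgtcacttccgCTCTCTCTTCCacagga
Rpl13a, chr7:45128731-45128760, minus strand: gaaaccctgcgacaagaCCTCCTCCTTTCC
Rpl36a, chrX:134585639-134585668, plus strand: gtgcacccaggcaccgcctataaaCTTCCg
Rpl23, chr11:97782425-97782454, minus strand: acgaggtccggtcacgtggctgagtgggcg
Rpl5, chr5:107900513-107900542, plus strand: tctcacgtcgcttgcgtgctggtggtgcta
Rps13, chr7:116334176-116334205, minus strand: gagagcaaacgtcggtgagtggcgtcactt
In Rps27, Rps6 and Rps18 the stretch runs across the annotated start, and in Rpl13a and Rpl36a it lies after it. Over all members' entries, 13 of 65 (20%) had a C and 4 further C or T exactly at the annotated start, against 2.51% of all 32851 entries in the table. Anywhere in the 30 bases, on the gene's strand, such a stretch stood in 39 of the 65 entries (60%), against 36.4% of all entries. The motif CCGGAAG, on either strand of the 300 bases around the start, was found in 24 of the 65 entries (36.9%) and in 8.86% of all entries. These are matches of letters, and annotated starts can lie some bases from those used in fat.

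Total counts per library lay between 1916829, in day 2 replicate 1, and 38832429. Summed over 8 marker genes of adipocytes, expression lay between 20160 and 42020 CPM in all libraries, where CPM here and below are scaled by edgeR's TMM factors. A few libraries stood apart from their groups. Chow replicate 4 held 169.1 CPM summed over 8 genes of the epididymal duct, where the other 3 chow libraries had 11.5 to 17.3 CPM. Day 4 replicate 1 held 67.2 CPM summed over 10 genes of the cell cycle, against 484 to 601 CPM in the other 3 libraries of that day. In day 6 replicate 4 the same sum was 349.7 CPM, against 50.2 to 107 CPM in the others. Counts of members called are therefore also given without chow replicate 4 and day 2 replicate 1, and without these and the day 4 and day 6 libraries just named.

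Ribosomal protein messages took a smaller share of the fat's RNA counts on the high-fat diet than on chow. The 75 members held 1.87%, 1.89%, 1.77% and 2.02% of all counts in the 4 chow libraries. After 2 days the shares were 1.60%, 1.66%, 1.58% and 1.74%, and after 4 days 1.47%, 1.70%, 1.57% and 1.72%. After 6 days they were 1.63%, 1.5%, 1.46% and 1.47%, and after 14 days 1.62%, 1.66%, 1.51% and 1.34%. Every one of the 16 high-fat libraries lay below every chow library. On the TMM scale, which allows for shifts in a few very abundant genes, the sum was 17758 ± 448 CPM on chow (SD, n = 4), 16679 ± 505 on day 2 and 16376 ± 1010 on day 4. It was 15613 ± 553 CPM on day 6 and 15371 ± 1000 on day 14. On this scale the libraries of days 2, 6 and 14 still lay below every chow library, while day 4, at 15224 to 17555 CPM, overlapped the chow range of 17331 to 18198. Both subunits had lower means on every high-fat day. The large subunit went from 10572 ± 273 CPM on chow to 9237 ± 562 on day 14, and the small subunit from 7187 ± 228 to 6135 ± 443. In bulk tissue, fewer cells of a type and less RNA per cell cannot be told apart.

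**Figure D1:**
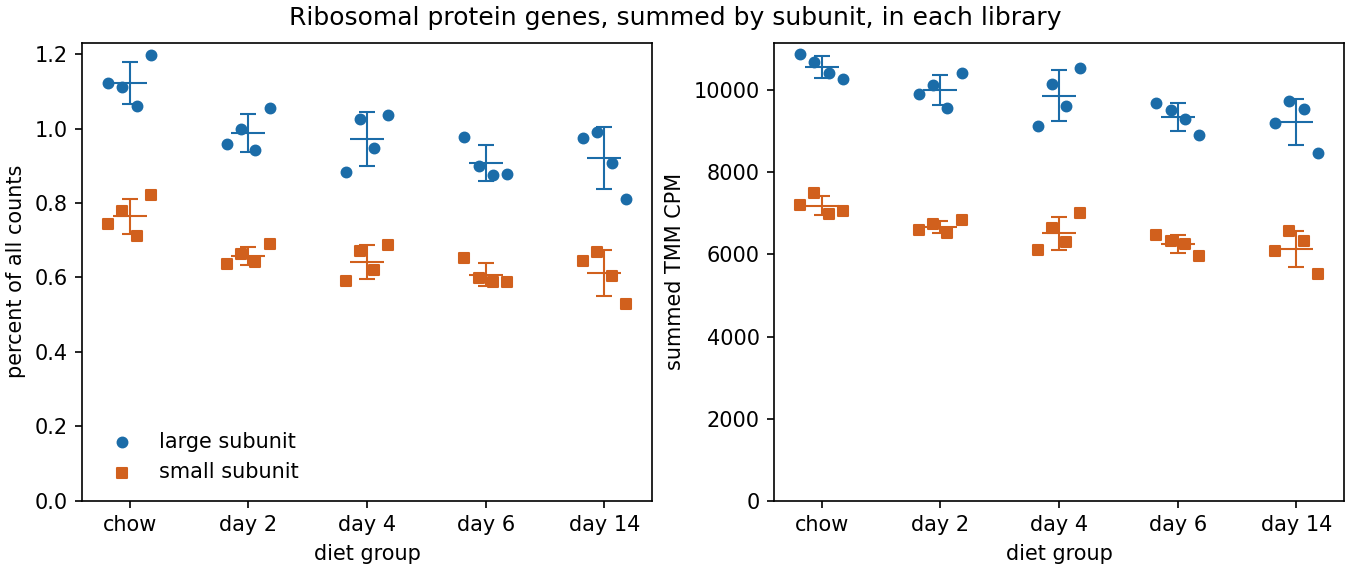
Sum of the 45 large-subunit (circles) and 30 small-subunit (squares) ribosomal protein genes in each of the 20 libraries, as percent of all counts (left) and as summed TMM-scaled CPM (right), by diet group; both axes start at 0, the wide line is the mean and the bars are ± 1 SD over 4 libraries. Both subunits lie lower on each high-fat day than on chow, from a mean of 1.12% to 0.921% of counts for the large and 0.764% to 0.611% for the small subunit on day 14.

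Differences from chow were small in most members, and most of them were negative. The median log2 change of the 75 members against chow was -0.11, -0.12, -0.21 and -0.23 on the 4 successive days. Over all genes tested the medians were -0.03, -0.02, -0.01 and -0.01. A negative change was found in 65, 64, 72 and 74 of the 75 members on the 4 days, against 54.3%, 51.7%, 51.2% and 51.3% of all genes. On all 4 days at once, 59 of the 75 members (78.7%) had a negative change, against 32.8% of all genes, where the 4 comparisons share the chow libraries. The mean was highest on chow in 59 members. It was lowest on day 14 in 42 members, on day 6 in 21, on day 4 in 11 and on day 0 in 1. That exception, Rpl41, encodes the shortest ribosomal protein, and its mean was 323 ± 31.2 CPM on chow, with no call on any day.

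Called genes, those with a Benjamini-Hochberg adjusted p under 0.05 in edgeR's quasi-likelihood test over all 15254 genes with TMM scaling, numbered 0, 24, 11 and 3 members on days 2, 4, 6 and 14. On day 4 23 members were called lower, against 17.3% of all genes, and 1 was called higher, against 18%. In all, 24 of 75 members were called, where 35.3% of all genes were. All 4 libraries lay below all chow libraries in 29 members, against 15% of all genes. Among the small-subunit genes 11 of 30 were called lower, and among the large-subunit genes 12 of 45, so the share of genes called lower was 36.7% and 26.7%. On day 2 no member was called by edgeR, where 4.39% of all genes were, while 17 members and 25.8% of all genes had an unadjusted p under 0.05. DESeq2 called 4 members on that day and limma-voom 0.

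On day 6 11 members were called, all lower, in a comparison where 3.45% of all genes were called and 1.46% called lower. All libraries lay below all chow libraries in 47 of the 75 members, against 5.74% of all genes. On day 14 the 3 called members, Rpl23, Rpl3 and Rpl36a, were lower, in a comparison where 1.18% of all genes were called and 0.302% called lower, and 46 members had no overlap with chow, against 4.65%. At an unadjusted p under 0.05 stood 46 members on day 6, against 24.4% of all genes, and 49 on day 14, against 18%. The order of the days by count depended on the tool and scaling. DESeq2 called 30, 35 and 35 members on days 4, 6 and 14, where it called 36.2%, 7.8% and 4.36% of all genes. With library size as the only scaling edgeR called 35, 42 and 11, where 35.6%, 5.95% and 0.937% of all genes were called, and limma-voom called 26, 14 and 8, against 32.2%, 4.63% and 1.53%. Members varied less between libraries of a group than all genes did, with a median within-group SD of 0.103 on the log2 scale against 0.253. Members were chosen at 50 CPM or more and the other genes were not, so these medians are not matched for level. The part this spread plays in the counts was not tested. A difference among the 5 groups at an adjusted p under 0.05 was found in 16 members, against 19.6% of all genes.

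Without chow replicate 4 and day 2 replicate 1, 16 members were called on day 4, and 0 on days 6 and 14. In that fit 26% of all genes were called on day 4, 0.0196% on day 6 and 0.242% on day 14. Without the 4 libraries named above, 14 members were called lower and 2 higher on day 4, and again 0 on days 6 and 14, where 32%, 0.0263% and 0.447% of all genes were called. The medians moved less. They were -0.15, -0.22 and -0.23 on days 4, 6 and 14 without 2 libraries, and -0.11, -0.19 and -0.23 without 4. With single libraries left out, the day 6 count was 0 without chow replicate 4 or day 6 replicate 2, 3 or 4. Every day 6 call below was thus lost when any of these was left out, where 0.0457% to 0.175% of all genes were called. The day 6 count was 24 without day 6 replicate 1, where 8.72% of all genes were called. It was 4 to 7 without chow replicate 2 or 3 or day 2 replicate 1 or 3. The same held without day 4 replicate 2, 3 or 4 or day 14 replicate 2. In the fits with 4 to 7 members, 1.29% to 2.54% of all genes were called. The day 14 count was 0 without chow replicate 4 or day 14 replicate 3, and 1 without chow replicate 2 or day 14 replicate 4. The share of all genes called was 0.359% and 0.291% in the first fits, and 0.725% and 0.788% in the others. The count of members that differed among the 5 groups was 7 without chow replicate 4, where 9.6% of all genes did. It was 9 or 10 without chow replicate 1, 2 or 3 or day 4 replicate 2, where 9.89% to 20.2% of all genes did. On day 4, 16 to 28 members were called whichever library was left out, where 20.8% to 37.1% of all genes were called. Of the 24, 12 stayed called each time, among them Rps27, Rpl22, Rps14, Rpl23, Rps13, Rps4x, Rpl3 and Rpl5.

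**Figure D2:**
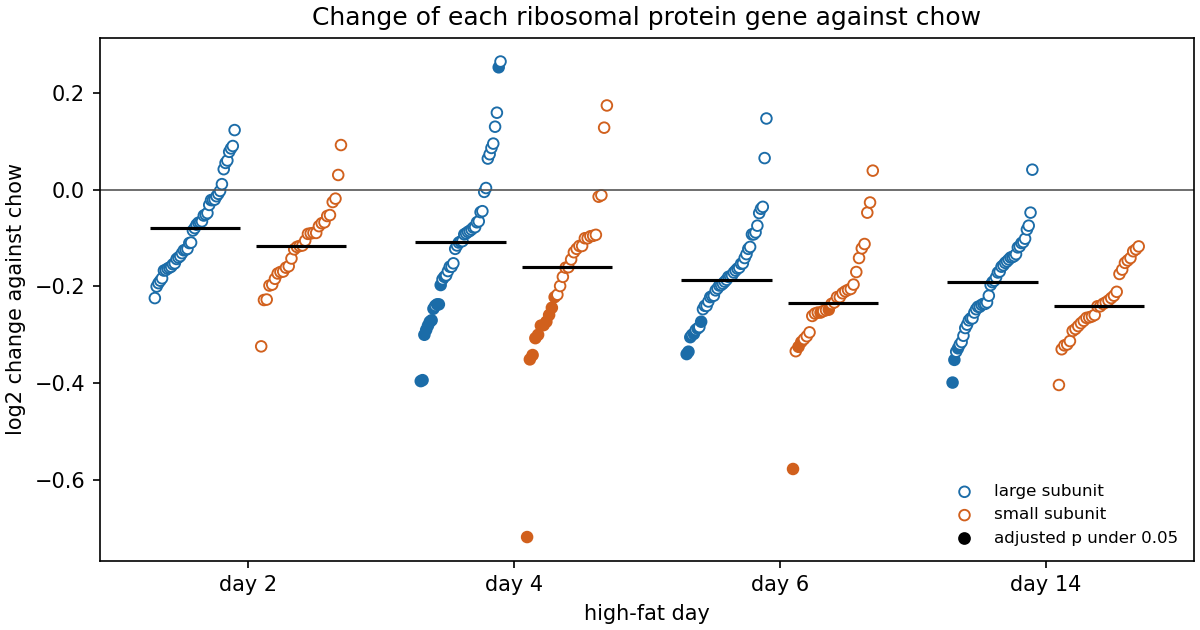
Log2 change of each of the 75 members against chow on each high-fat day, large subunit in blue and small subunit in orange, sorted within each set; filled points have an adjusted p under 0.05 and the black lines are medians. Most points lie below 0 on every day, the day 4 set reaches from -0.72 (Rps27) to 0.27 (Rpl41), and the filled points number 0, 24, 11 and 3.

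Between successive high-fat days the members differed little. From day 2 to day 4 the median change was -0.04, from day 4 to day 6 it was -0.07, and from day 6 to day 14 it was -0.01. No member was called by edgeR in any of these 3 comparisons, where 2.4%, 0% and 0% of all genes were called. An unadjusted p under 0.05 was found in 8, 5 and 0 members, against 22.3%, 16.3% and 3.33% of all genes. DESeq2 called 3, 0 and 0, and limma-voom called none in any of them. The 3 comparisons share libraries with one another.

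Rps27, a zinc-finger protein of the small subunit, gave the lowest change of any member on days 2, 4, 6 and 14. Its levels were 171, 194, 169 and 183 CPM on chow, 121, 172, 130.1 and 147 on day 2, and 111, 112, 108 and 104 on day 4. They were 139, 125, 110.2 and 105 CPM on day 6 and 147, 153, 126 and 115 on day 14. The day 4 libraries lay close together and well below chow, day 2 replicate 2 reached the chow range, and days 6 and 14 stayed under it without overlap. From 179 ± 11.5 CPM on chow it fell to 109 ± 3.58 on day 4, which is -0.72 ± 0.114 on the log2 scale (SE here and below, edgeR adjusted p = 0.000926). On day 6 the change was -0.58 ± 0.112 with an adjusted p of 0.0244 by edgeR. On days 2 and 14 it was -0.32 ± 0.113 and -0.40 ± 0.113, with edgeR adjusted p of 0.0906 and 0.0725, neither past the threshold. With 1 library left out, the day 4 adjusted p was at most 0.0063 and the day 6 one at most 0.0961.

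Rps6, the small-subunit protein phosphorylated by the S6 kinases downstream of mTORC1, was 181, 183, 164 and 159 CPM on chow. It was 151, 154, 139 and 166 CPM on day 2, 134, 142, 155 and 157 on day 4, 143, 133, 142 and 130.0 on day 6 and 139, 147, 139.6 and 139 on day 14. The libraries of days 4, 6 and 14 all lay under the chow range, narrowly so on day 4. It fell by 0.22 ± 0.075 on the log2 scale on day 4 and by 0.33 ± 0.074 on day 6 (edgeR adjusted p = 0.0272 and 0.0339), while the day 14 change of -0.28 ± 0.075 had an adjusted p of 0.0643. Without chow replicate 1 or 2 or day 4 replicate 1 or 2 the day 4 call was lost, with an edgeR adjusted p of up to 0.0801, and the day 6 call was also lost without chow replicate 2.

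Rps14, a protein of the platform of the small subunit, was 239, 219.8, 247 and 244 CPM on chow and 179, 194, 180.4 and 193 on day 4. Its levels were 216, 216, 193 and 188 CPM on day 2, 206, 196, 183 and 179.6 on day 6 and 199, 214, 179.8 and 172 on day 14. No high-fat library reached the lowest chow library. The change was -0.35 ± 0.081 on day 4 and -0.32 ± 0.081 on day 6 (edgeR adjusted p = 0.00395 and 0.0439). The day 6 call was also lost without chow replicate 3, day 2 replicate 1 or 3 or day 4 replicate 2, 3 or 4, with 0.14 as its highest adjusted p.

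Rps13 and Rps4x, further proteins of the small subunit, were both called lower on day 4. Rps13 was 124, 124, 118 and 124 CPM on chow and 98.4, 103, 96.1 and 105 on day 4, a change of -0.28 ± 0.067 (edgeR adjusted p = 0.00449). Rps4x, encoded on the X chromosome, was 422, 437, 395 and 438 CPM on chow and 346, 354, 331 and 344 on day 4, a change of -0.30 ± 0.073 (edgeR adjusted p = 0.00526). In neither gene did the day 4 libraries overlap chow. Rps13 was also called on day 6, at -0.25 ± 0.066 with an edgeR adjusted p of 0.0469. That call was lost in 16 of the 20 fits with 1 library left out, at an adjusted p of up to 0.15. Rps4x, at -0.25 on that day, had an adjusted p of 0.0571. Rps13's start holds no stretch of C and T of the length searched for.

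Near the exit of the messenger channel, Rps14 and Rps28 were called lower on day 4 and Rpsa was not. The call of Rps28 was lost without chow replicate 1, 3 or 4 or day 4 replicate 1 or 2, at an edgeR adjusted p of up to 0.104. Rpsa, also known as the laminin receptor precursor, was 549, 535, 517 and 496 CPM on chow and 505, 612, 589 and 661 on day 4. Day 4 replicate 1 lay in the chow range and the other 3 lay above it. The change was 0.17 ± 0.091 with an edgeR adjusted p of 0.14, and 0.25 with an adjusted p of 0.0369 without day 4 replicate 1. On day 14 Rpsa stood at 474 ± 38.5 CPM against 524 ± 22.7 on chow, with no call.

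In the large subunit, Rpl3, a protein that reaches toward the peptidyl transferase centre, showed the lowest large-subunit change on days 6 and 14. Its levels were 381, 356, 394 and 373 CPM on chow, 325, 315, 332 and 345 on day 2, and 314, 317, 286 and 305 on day 4. They were 347, 273, 298 and 270.4 CPM on day 6 and 281, 293, 288 and 279 on day 14. None of the 16 high-fat libraries reached the lowest chow library, and the day 14 libraries lay closest together. The change was -0.30 ± 0.080 on day 4, -0.34 ± 0.080 on day 6 and -0.40 ± 0.080 on day 14, each called by edgeR (adjusted p = 0.00858, 0.0366 and 0.0203). The day 14 call was lost without chow replicate 3 or 4 or day 14 replicate 1, 2 or 3, at an adjusted p of up to 0.0588. The day 6 call was also lost without chow replicate 3, day 4 replicate 2 or 4 or day 14 replicate 2, and with 1 library left out its edgeR adjusted p reached 0.122.

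Rpl23, which sits on the face of the large subunit that meets the small one, had the same order. It was 239.7, 278, 239.6 and 258 CPM on chow and 218, 226, 217 and 223 on day 2. On day 4 it was 203, 206, 209 and 217 CPM, on day 6 it was 206, 204, 209 and 206, and on day 14 it was 209, 211, 201 and 188. All high-fat libraries lay below all chow libraries. The changes on days 4, 6 and 14 were -0.28 ± 0.065, -0.30 ± 0.065 and -0.33 ± 0.065 (edgeR adjusted p = 0.00397, 0.0297 and 0.0188), and the day 2 change of -0.20 ± 0.065 missed the threshold at 0.0757. Without chow replicate 2 or 4 or day 14 replicate 3 or 4, the day 14 adjusted p rose to at most 0.0685, and the day 6 call was also lost without chow replicate 2.

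Rpl36a, a protein of the site through which used transfer RNA leaves, was the last of the 3 members called on days 4, 6 and 14. It was 81.9, 87.1, 81.9 and 85.8 CPM on chow, 66.4, 77.1, 68.1 and 81.9 on day 4, 68.2, 69.3, 72.4 and 66.0 on day 6, and 68.5, 68.7, 66.6 and 59.5 on day 14. On day 4 its highest library all but touched the lowest chow library, and on days 6 and 14 a gap separated them. The change was -0.20 ± 0.072 on day 4, -0.29 ± 0.071 on day 6 and -0.35 ± 0.072 on day 14 (edgeR adjusted p = 0.0406, 0.0431 and 0.0232). The day 14 call was lost without chow replicate 2 or 4 or day 14 replicate 3 or 4, at an adjusted p of up to 0.0763. The day 4 call was lost without chow replicate 2, 3 or 4 or day 4 replicate 1 or 3, at up to 0.125, and the day 6 call also without chow replicate 2 or 3, day 2 replicate 1, day 4 replicate 2 or day 14 replicate 2, with 0.132 as its highest edgeR adjusted p.

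Rpl22, a large-subunit protein that also binds other RNAs, had levels of 117, 135, 131 and 131 CPM on chow. They were 104, 98.8, 84.3 and 103 CPM on day 4 and 107, 101, 105 and 94.5 on day 6. Neither day overlapped chow. The change was -0.39 ± 0.079 on day 4 and -0.34 ± 0.078 on day 6 (edgeR adjusted p = 0.00188 and 0.0366), and -0.30 ± 0.078 on day 14 with an adjusted p of 0.0615. The day 6 call was also lost without chow replicate 2 or 3, day 4 replicate 2 or 4 or day 14 replicate 2, and its highest edgeR adjusted p with 1 library left out was 0.122.

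Rpl5 and Rpl11 bind the 5S ribosomal RNA together and, when ribosome assembly is disturbed, the p53 regulator Mdm2. Rpl5 was 235, 222, 220.2 and 229 CPM on chow, 183, 185, 193 and 208 on day 4, and 195, 183, 179 and 178 on day 6. It fell by 0.24 ± 0.068 on day 4 and by 0.30 ± 0.068 on day 6 on the log2 scale, without overlap (edgeR adjusted p = 0.013 and 0.0317). Rpl11 was 284, 255, 260.3 and 241 CPM on chow, 261, 248, 251 and 276 on day 4 and 219, 244, 255 and 225 on day 14. Its libraries overlapped chow on every day, and its edgeR adjusted p lay between 0.365 and 0.975. Whether Rpl5 and Rpl11 differed in their change was not tested.

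The P stalk, the flexible arm of the large subunit that recruits elongation factors, is built of Rplp0, Rplp1 and Rplp2 on a base with Rpl12. Rplp2 was 256, 324, 272 and 241 CPM on chow and 227, 191, 185 and 225 on day 4, a change of -0.40 ± 0.116 (edgeR adjusted p = 0.0142, and up to 0.0601 without chow replicate 2 or day 4 replicate 3). Rplp0 was 592, 567, 565 and 581 CPM on chow and 497, 716, 636 and 677 on day 4. For Rplp2 the day 4 libraries all lay below chow, whereas for Rplp0 replicate 1 lay below chow and the other 3 above it. Rplp0's change of 0.13 ± 0.096 was not called (edgeR adjusted p = 0.297), and became 0.23 with an adjusted p of 0.0316 without that library. Rplp1 and Rpl12 were not called on any day.

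Rpl29, a small basic protein of the large subunit, was the 1 member called higher in the fit of all 20 libraries. Without day 4 replicate 1, 5 members were called higher and 16 lower on day 4, where 37.1% of all genes were called. Rpl29 was 173, 148, 154 and 153 CPM on chow. On day 4 it was 156 CPM in replicate 1, within the chow range, and 185 to 208 CPM in the other 3 libraries, above it. The change was 0.25 ± 0.086 (edgeR adjusted p = 0.028). It was 0.33 with an adjusted p of 0.00369 without day 4 replicate 1, and 0.14 and not called with library size as the only scaling. The call was also lost without chow replicate 2, 3 or 4 or day 4 replicate 2 or 4, at an adjusted p of up to 0.126. On day 14 it was 152 ± 7.44 CPM against 157 ± 10.9 on chow.

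Some members are often used as reference genes in quantitative PCR. Of 9 such genes listed (Rplp0, Rpl13a, Rps18, Rpl19, Rpl32, Rps29, Rpl4, Rps9 and Rpl27), Rpl13a was called lower on day 4 and none was called on days 2, 6 and 14. These counts stand beside 24 of 75 members and 35.3% of all genes called on day 4, and beside 11 and 3 members on days 6 and 14. Rpl13a was 362, 346, 351 and 359 CPM on chow, 282, 308, 287 and 319 on day 4 and 286, 313, 303 and 261 on day 14. Neither day overlapped chow. Its changes were -0.25 ± 0.080 and -0.29 ± 0.080, with edgeR adjusted p of 0.0235 and 0.0731, and the first was lost without day 4 replicate 1 or 3, at up to 0.0604. Rps18 was 262, 255, 243 and 248 CPM on chow and 206, 222, 217 and 194 on day 14, without overlap, at -0.26 ± 0.084 and an edgeR adjusted p of 0.107. On day 14 all 9 had negative changes, with a median of -0.17.

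**Figure D3:**
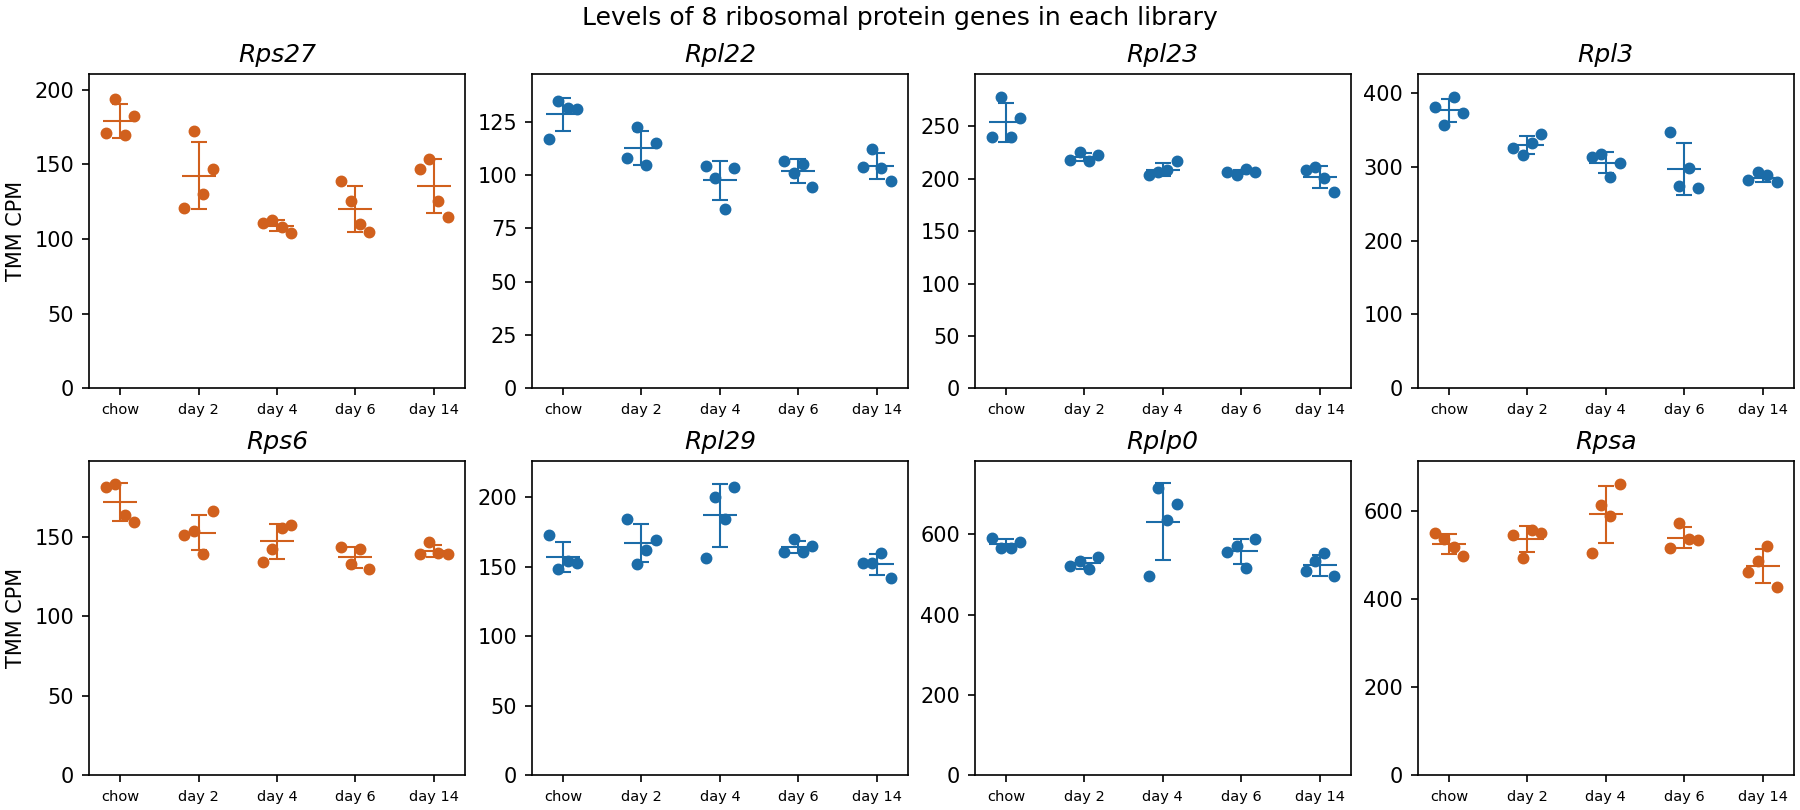
TMM-scaled CPM of 8 ribosomal protein genes in each library by diet group, large subunit in blue and small subunit in orange; each vertical axis starts at 0 and differs between panels, the wide line is the mean and the bars are ± 1 SD over 4 libraries. Rps27 is lowest on day 4 at 109 ± 3.58 CPM, Rpl23 and Rpl3 stay below chow in every high-fat library, and in Rpl29, Rplp0 and Rpsa day 4 replicate 1 lies under the other 3 libraries of its day.

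The day 4 libraries differed among themselves. Of the 75 members, 32 lay above their chow mean in day 4 replicate 4, 17 in replicate 2, 9 in replicate 3 and 3 in replicate 1. The number was 11 to 24 in the libraries of day 2, 2 to 9 in those of day 6 and 0 to 9 in those of day 14. The 11 members with a positive change on day 4 included Rpl41 at 0.27, Rpl29, Rpsa, Rpl35 at 0.16, Rplp0 and Rps2 at 0.13. Rpl41 stood at 368, 309.8, 319 and 296 CPM on chow and at 294, 425, 409 and 429 on day 4, with replicate 1 just below the chow range and the other 3 above it, and its edgeR adjusted p was 0.0867. The same replicate had the low cell-cycle sum given above. On day 4 all 10 cell-cycle genes were called higher, with a median log2 change of 3.71, and all 10 markers of mesothelium, the cell layer covering the fat pad, were called lower, with a median of -1.82. Mesothelial markers summed to 399.5 to 523 CPM in the chow libraries. The ranges were 126 to 189.7 CPM after 2 days and 82.2 to 243 after 4, then 179 to 316 after 6 and 177 to 379 after 14. The sum of 10 macrophage markers, 1318 to 1596 CPM on chow, lay at 776 to 1270.0 after 2 days, below every chow library. Later ranges overlapped chow, with 842 to 1541 CPM after 4 days, 1028 to 1563 after 6 and 978 to 1646 after 14. All 10 were negative on day 2 with a median of -0.38, and none was called. On day 4, 5 of 8 endothelial markers were called higher, and their sum was 1064 to 2060.0 CPM against 886 to 1161 on chow. Of 8 adipocyte markers, 2 were called lower and 1 higher on that day, and the sum was 23982 ± 5250 CPM against 31910 ± 8100 on chow. All 9 markers of T and NK cells tested were negative on day 4, 2 of them called lower, with sums of 7.32 to 14.4 CPM against 14.5 to 24.4. None of the listed markers was at 0 in all libraries, and the part of these cell types in the members' changes was not tested.

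Within groups the members varied together from library to library. The mean Pearson correlation of their log2 levels, taken as deviations from group means over the 20 libraries, was 0.423 between members and 0.00108 between genes in general, and 94.2% of the 2775 member pairs had a positive value. These points share library, depth and scaling. Scaling that centres most genes in each library tends to hold the mean correlation over all genes near 0. Members followed the mean of the others most closely in Rpl8 at 0.924, Rps29 at 0.915 and Rps10 at 0.907, and least in Rpl3 at 0.299, so the gene lowest on day 14 among the large subunit was also the one least tied to the rest. Per kilobase of coding sequence, the mean level over all libraries was highest in Rpl41 at 4683 CPM, Rps29 at 1232 and Rplp1 at 1119, and lowest in Rps6 at 201, Rpl15 at 213 and Rpl10a at 219. The widest within-group SD on the log2 scale was 0.183 in Rps21, followed by 0.176 in Rpl39. Counts fell on whole transcripts, so a value per coding length overstates the level of a gene with a very short reading frame. Coding length was little related to the changes. For the 25 members under 400 coding bases the median change was -0.15 on day 4 and -0.24 on day 14, and for the 50 longer ones -0.12 and -0.22.

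The members were also set out by the pyrimidine stretch near their start. The 37 members with the stretch in the 30 bases around any annotated start had a median change of -0.11 on day 4, and 8 of them were called lower. Among these, the 13 with a C and 4 further C or T exactly at an annotated start had a median of -0.18, and 4 were called lower. The 18 with promoter entries but no such stretch had a median of -0.21, and 9 of them were called lower. For the 20 without a promoter entry these were -0.15 and 6. Over all genes 17.3% were called lower on that day. On day 14 the medians were -0.23 with the stretch in the 30 bases, -0.24 with it exactly at a start and -0.24 without it. Of the members whose starts are printed above, Rpl23, Rpl5 and Rps13 hold no stretch and were called lower on day 4. Rps27, Rps6, Rpl13a and Rpl36a hold it and were also called lower, while Rps18 holds it and was not called. The starts of Rps4x, Rplp0, Rpsa and Rpl11, not printed, also hold no stretch, and of these only Rps4x was called lower on day 4. No test was made of this division of the members.

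Several members have a second gene for a closely related protein, and the ratio of their counts within a library does not depend on scaling. Rps27 and Rps27l encode proteins that differ at few positions, and Rps27l is known as a target of p53. The ratio of Rps27 to Rps27l was 3.77, 4.22, 3.93 and 3.85 on chow, 2.26, 3.95, 2.37 and 2.62 on day 2, and 2.11, 2.32, 2.18 and 1.73 on day 4. It was 3.07, 2.63, 2.14 and 2.11 on day 6 and 3.96, 3.83, 2.47 and 2.37 on day 14. On days 4 and 6 no library reached the chow ratios, and on day 14 the libraries spread from the day 4 level to the chow level. In a two-sided exact permutation test of log2 ratios, days 4 and 6 each gave p = 0.0286, the smallest that 4 against 4 libraries allow, and 0.0762 after Benjamini-Hochberg adjustment over the 16 ratios tested. Rps27l itself was 45.4, 45.9, 43.1 and 47.5 CPM on chow and 52.5, 48.5, 49.5 and 60.3 on day 4, with an edgeR adjusted p of 0.103.

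The other 3 pairs had lower ratios on day 4 too. Rpl7 to Rpl7l1 was 5.12 to 7.09 on chow and 3.32 to 4.29 on day 4, Rpl22 to Rpl22l1 was 3.28 to 5.12 and 2.40 to 3.03, and Rpl36a to Rpl36al was 1.38 to 2.03 and 1.17 to 1.25. None overlapped on that day, and each gave an exact permutation p of 0.0286, adjusted 0.0762, so no ratio passed after adjustment. With 0.0286 as the smallest p possible, a ratio could pass only if most of the 16 tested reached it. The adjusted values therefore cannot decide whether a single ratio changed. For Rpl36a the ratio on day 2, 1.11 to 1.37, did not overlap chow either. The numerators and denominators did not move alike. Rpl7l1, a nucleolar assembly protein, was called higher on day 4, at 79.5 ± 9.65 against 53.0 ± 7.60 CPM (log2 change 0.59 ± 0.159, edgeR adjusted p = 0.00953). Rpl36al was also called higher, at 0.33 ± 0.100 with an edgeR adjusted p of 0.0168. Rpl22l1, at 0.16 ± 0.197, was not. Reads of near-identical paralogs and pseudogenes can be split or lost in counting. Rows named as pseudogenes of ribosomal protein genes numbered 245 and held 0.0104% to 0.0193% of the counts in any library.

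**Figure D4:**
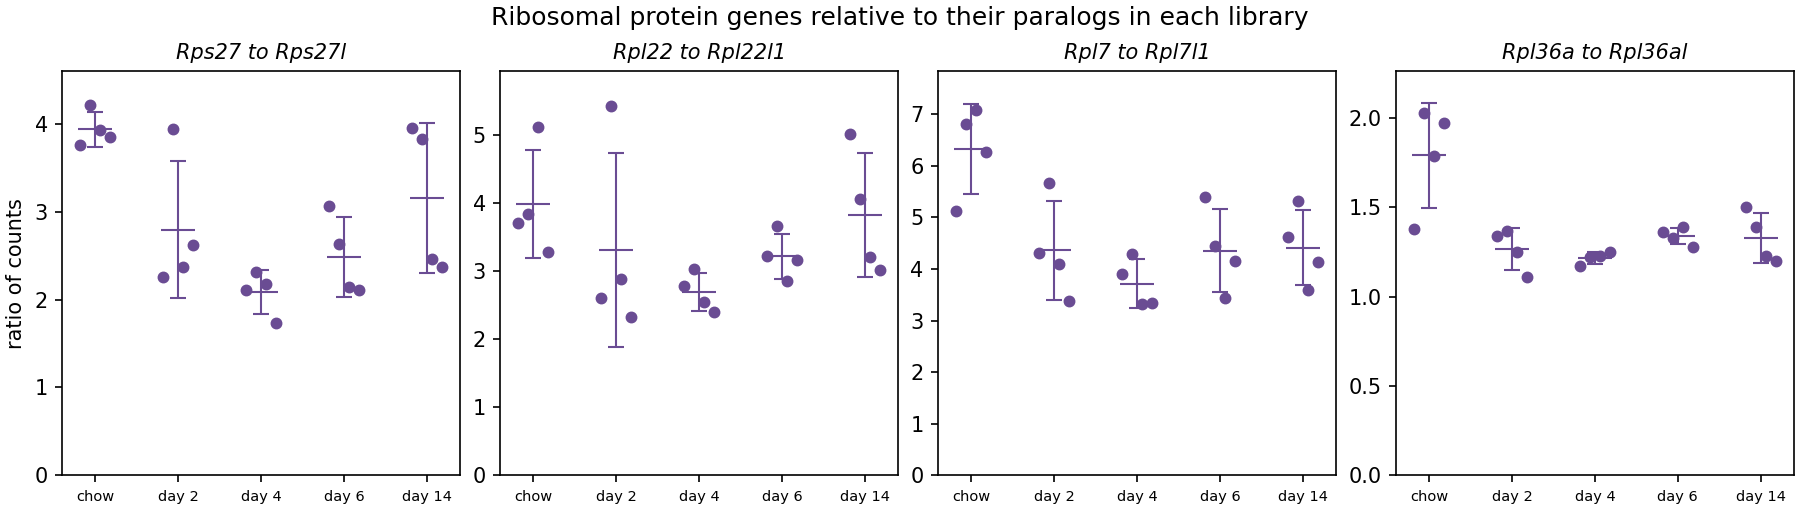
Ratio of the counts of 4 ribosomal protein genes to those of their paralogs in each library, by diet group; vertical axes start at 0 and differ between panels, the wide line is the mean and the bars are ± 1 SD over 4 libraries. On day 4 all 4 libraries lie below all chow libraries in each pair, from 3.77 to 4.22 down to 1.73 to 2.32 for Rps27 to Rps27l, and on day 14 each pair has at least 1 library within its chow range.

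Ribosomal proteins outside the naming rule gave mixed results. Rps3a1, a small-subunit protein, was called lower on day 4 at -0.29 ± 0.070 (edgeR adjusted p = 0.00458) and on day 6 at -0.27 ± 0.069 (0.0439). Rack1, a scaffold protein on the small subunit, was 358 ± 12.6 CPM on chow and 358 ± 40.3 on day 4. Fau, whose protein is made as a fusion with a ubiquitin-like domain, was not called on any day. Nop53, an assembly factor of the large subunit that is not among the 37 assembly genes described next, was called lower on day 4 at -0.45 ± 0.108 (edgeR adjusted p = 0.00467).

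On day 4 the mitochondrial ribosome and ribosome assembly lists held more genes called higher than lower. Over all genes 2.43%, 18%, 1.99% and 0.878% were called higher on days 2, 4, 6 and 14. Of 76 genes of the mitochondrial ribosome tested, 3, 24, 4 and 0 were called higher on days 2, 4, 6 and 14 and 0 lower on any, with median changes of 0.26, 0.22, 0.18 and 0.06. Mrps6, a protein of the small mitochondrial subunit, was 45.5 ± 8.44 CPM on chow and 92.1 ± 14.8 on day 4 (log2 change 1.02 ± 0.218, edgeR adjusted p = 0.00273). With library size as the only scaling, which put the median of all genes at -0.10 to -0.14 against chow, 13 of the 76 were called higher and 4 lower on day 4, and the day 14 median was -0.03. Without chow replicate 4 and day 2 replicate 1, 9 were called higher and 0 lower on day 4, and without 4 libraries 9 higher and 5 lower. The calls of days 2 and 6 were then 0 in either case. Of 37 genes of ribosome assembly, 4 were called higher on day 2 and 18 on day 4, with 1 lower, and none on days 6 and 14. The day 2 count was 0 without 2 or 4 libraries and 1 with library size only, and the day 4 count was 14, 14 and 13. Nop2, which methylates ribosomal RNA, rose from 20.5 ± 1.34 to 33.6 ± 2.90 CPM on day 4 (0.72 ± 0.120, edgeR adjusted p = 0.00104), and Rrp12, an export factor for ribosomal particles, from 10.6 ± 2.10 to 23.4 ± 3.71 (1.15 ± 0.204, adjusted p = 0.00123). Dkc1, which modifies ribosomal RNA, was the 1 of these 37 called lower, at -0.43 ± 0.113.

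Of 28 initiation factors, 6 were called higher and 3 lower on day 4, or 4 and 4 with library size only, where 18% and 17.3% of all genes were called higher and lower. The lower ones were Eif4a2, Eif4b and Eif3f. Eif4a2, a helicase of the cap-binding complex, fell from 328 ± 60.2 to 180.0 ± 33.0 CPM (-0.86 ± 0.152, edgeR adjusted p = 0.0012). Eif4b, its cofactor, fell from 242 ± 26 to 178 ± 9.23 CPM (-0.45 ± 0.097, edgeR adjusted p = 0.0029). Of 8 elongation genes, Tpt1 and Eef2 were called lower on day 4 at -0.33 ± 0.087 and -0.31 ± 0.116 (edgeR adjusted p = 0.00779 and 0.0437). Eif5a and Eef1e1 were called higher at 0.42 ± 0.113 and 0.71 ± 0.229 (edgeR adjusted p = 0.00887 and 0.0234), and the others of the 8 were not called on that day. Of 18 genes of mTORC1 and its action on messages with a pyrimidine tract, 6 were called higher and 1, Tsc1, lower on day 4. With library size only these counts were 4 and 2. Tsc1, a brake on mTORC1, fell by 0.40 ± 0.082 (edgeR adjusted p = 0.00213), Larp4b, a relative of Larp1, rose by 0.54 ± 0.101 (0.00141), Larp1 rose by 0.48 ± 0.119 (0.00531), and Mtor itself was not called on any day. On day 14 Deptor, an inhibitor within the complex, was the 1 gene of this list called, from 164 ± 25 to 262 ± 26.2 CPM (0.67 ± 0.143, edgeR adjusted p = 0.0289). No gene of the list was called on day 14 with library size only or without chow replicate 4 and day 2 replicate 1. In the fit without 4 libraries 1 gene of the list was called higher on that day. These lists share the chow libraries with the members, so the sets of values are given side by side and no test compares them.

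**Figure D5:**
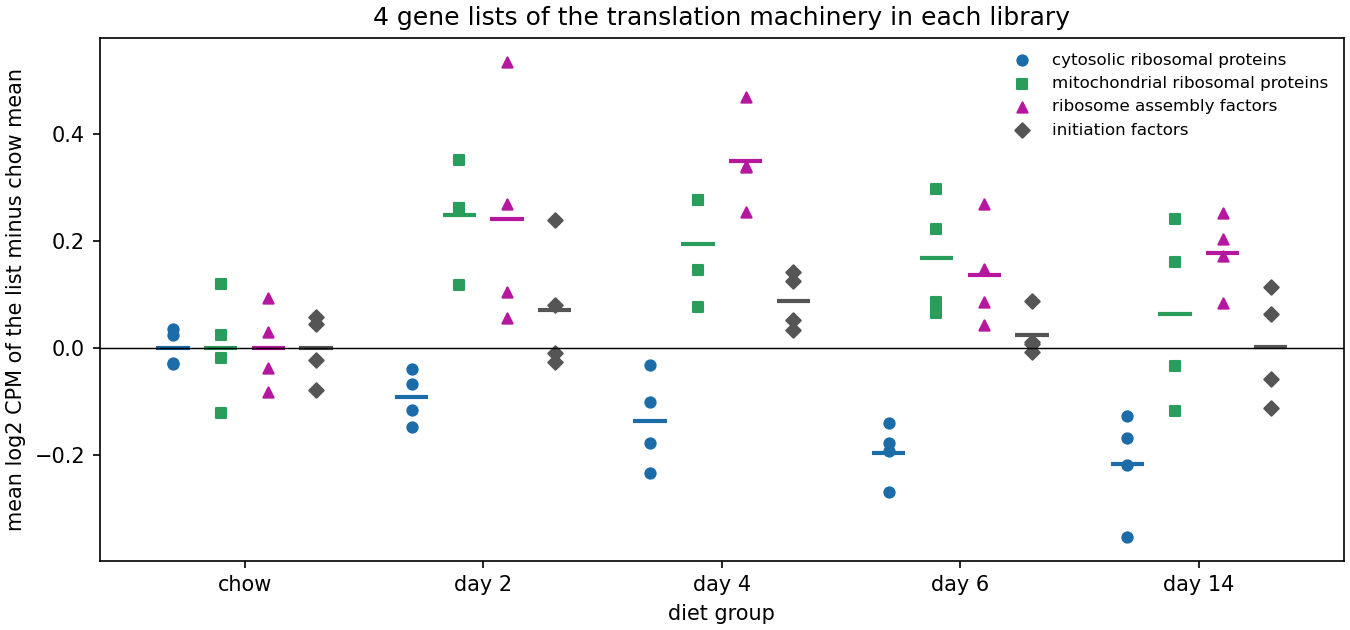
Mean log2 CPM of 4 gene lists in each library, as the difference from the list's chow mean, by diet group; each point is 1 library and the lines are group means. The cytosolic ribosomal proteins (75 genes) lie at -0.03 to -0.35 in all 16 high-fat libraries, the assembly factors (37 genes) and, on days 2 to 6, the mitochondrial ribosomal proteins (76 genes) lie above 0, and the initiation factors (28 genes) lie on both sides of it.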

How the data were processed

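Polyadenylated or total RNA selection is not described beyond the TruSeq RNA kit that the labels name. The authors deposited a table of raw counts of reads per gene, whole numbers with 1 column per library. CASAVA, STAR, featureCounts, limma and R 3.0 are named in the submitters' processing notes, with no role given. Genome build, annotation and strand setting are not given in the sources used here, so reads of overlapping, antisense or near-identical genes cannot be separated.

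Symbols were matched by gene ID (37607 of 39179) and protein-coding status was taken from GENCODE. Counts were analysed in R 4.3.3 with edgeR 4.0.16: filterByExpr (minimum count 10, minimum total 15), TMM scaling and 1 quasi-likelihood fit over all 20 libraries with group as the only term, adjusted over 15254 genes and called under 0.05. SE is the log2 change divided by the square root of F. Depth ran from 1916829 to 38832429 counts, and the mean of at least 50 CPM in every member follows from the rule that chose them. DESeq2 1.42.0 and limma 3.58.1 (voom), other scalings and filters, and libraries left out were alternatives. The model code was tested on simulated data.

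Members named in full were, per comparison with chow, the 6 called lower and 6 called higher with the smallest adjusted p, a fixed panel of 12 genes, and those with the highest and lowest level per length, the widest spread or nearest the 50 CPM limit; others named were chosen after their values were seen. From each companion list the 2 called genes with the smallest adjusted p were taken. Members, lists and the paralog pairs were chosen with earlier results of these data known, as were the 4 libraries left out together.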

Additional observations from a re-analysis of the deposited data

Results flagged for a closer look

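Among 95 groups of 4 libraries checked for a single library far from the others, 4 held one, where chance gives about 1 in 20. Rps13 in chow replicate 3 stood at 118 CPM, against 124 CPM in each of the other chow libraries. Rps13 in day 6 replicate 1 stood at 113 CPM, against 99.5 to 100.2 CPM. Rpl11 in day 2 replicate 4 stood at 295 CPM, against 265 to 269.7 CPM. Rps6 in day 14 replicate 2 stood at 147 CPM, against 139 to 139.6 CPM.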

How the results depend on the processing

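None of the 38 calls of members against chow changed sign under any alternative run. Of the named members' changes that were not called, 4 did: Rpl11 between -0.03 and 0.14 on day 2 and -0.11 and 0.03 on day 4, and Rpsa between -0.08 and 0.07 on day 2 and -0.09 and 0.06 on day 6. The medians against chow moved by more than the 0.0693 spread between libraries only with library size as the sole scaling, to -0.21, -0.24, -0.34 and -0.33 on days 2, 4, 6 and 14. That scaling put the median of all genes at -0.14, -0.14, -0.14 and -0.10. Counts of members called depended on the settings more. With library size only they were 2 on day 2, 42 on day 6, 11 on day 14 and 41 among the 5 groups (5.38%, 5.95%, 0.937% and 21.3% of all genes), and on day 4 35 lower and 0 higher, against 23 and 1 as reported. DESeq2 called 4 on day 2, 35 on day 6, 35 on day 14, 3 between days 2 and 4, and 43 among groups (9.33%, 7.8%, 4.36%, 6.03% and 29.5% of all genes). Limma-voom called 8 on day 14 (1.53%). A stricter count filter gave 19 on day 6, 14 on day 14 and 30 among groups (3.4%, 1.64% and 21.7%), and no filter 1 on day 6 and 7 among groups (0.488% and 8.66%), with 26613 genes tested. Fits of only the groups compared gave 0 on days 6 and 14 (0% and 0.542%). At an adjusted p under 0.01 the counts were 9 on day 4, 0 on days 6 and 14 and 1 among groups (17.3%, 0.0721%, 0.243% and 2.92%). Without the 2 libraries named in the report they were 0 on days 6 and 14 and 1 among groups (0.0196%, 0.242% and 4.93%), and without 4 they were 0, 0 and 6 (0.0263%, 0.447% and 18.2%), with 3 between days 2 and 4 (16.1%).

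The reported fit did not pair samples by replicate number. Same-numbered libraries of different groups had correlations of -0.19 to 0.52, median 0.04, against -0.69 to 0.38, median -0.01, for other-numbered ones. With a replicate block 7 members were called on day 6 and 1 between days 2 and 4 (2.68% and 3.61% of all genes). Leaving out 1 library gave 0 to 2 calls on day 2 and 16 to 28 on day 4, where 0.278% to 11.4% and 20.8% to 37.1% of all genes were called. It gave 0 to 24 on day 6 and 0 to 4 on day 14 (0.0457% to 8.72% and 0.291% to 3.13% of all genes). Between days 2 and 4 it gave 0 to 5, and between days 4 and 6 0 to 1 (0% to 14.5% and 0% to 4.78%). Among groups it gave 7 to 22 (6.31% to 26.2%). The cause was not tested.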
